A study of Mus musculus with 18 samples.

Results

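LLC1 cancer cells grown with control wound healing fibroblasts were compared with LLC1 cells grown alone, which used 6 of the 18 libraries of the series. The libraries were chosen by their labels alone: 3 libraries of LLC1 with no other cells (LLC1 alone) and 3 of LLC1 with WT wound healing fibroblasts (LLC1 WT). LLC1 is the Lewis lung carcinoma line of the mouse, here carrying GFP and luciferase. Cancer cells and fibroblasts were mixed in hanging drops at 3 fibroblasts per cancer cell, the aggregates were kept as spheroids on a shaker, and RNA was taken from the cancer cells after they had been sorted by their GFP. The fibroblasts had been cultured from dorsal skin of mice at day 10 after wounding. WT denotes the control guide RNA (sgNS), so these fibroblasts kept Prrx1, the transcription factor gene that was deleted by CRISPR/Cas9 in the fibroblasts of the remaining LLC1 group (sgPrrx1). LLC1 alone had neither fibroblasts nor a guide RNA. The study lists its mouse dermal fibroblasts as coming from C57BL/6 mice. The methods place the GFP in the cancer cells, whereas another passage of the study speaks of fibroblasts that express GFP, so whether the fibroblasts carried GFP as well was not settled here. The purity of the sort and whether the spheroids grown alone were sorted as well are not given in the sources used here. The comparison asks how the transcripts of cancer cells differ after growth in contact with fibroblasts.

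Fibroblasts next to a carcinoma release growth factors, cytokines and matrix, and cancer cells read these signals through receptor kinases, integrins, Notch and cytokine receptors. Many such inputs reach the nucleus first through the immediate early genes, which code for short-lived transcription factors of the AP-1, Egr and Klf families and are held back by feedback genes such as the dual specificity phosphatases and the Sprouty proteins. Other programmes that respond to neighbouring cells, among them interferon signalling, sterol synthesis, respiration and the cell cycle, are read from larger groups of genes.

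Total counts ran from 77077913 to 80403508 in LLC1 alone and from 73474528 to 79526021 in LLC1 WT, and 13788 to 13938 genes were detected alone against 14142 to 14217 after coculture. The groups separated along the first principal component (65.4% of the variance), while on the second (11.3%) alone replicate 3 had a score of -25.9 and the other 5 libraries lay between -9.09 and 15.9. Log CPM correlated at 0.990 to 0.992 within groups and at 0.969 to 0.973 between them. No replicate pair agreed within sampling noise (chi-square per degree of freedom at least 38.7), so each library counted once. The labels do not say whether replicates were separate cultures, and p-values therefore measure only the spread between these samples, which may be technical. Of 12 listed markers of lung epithelium 6, Nkx2-1 and the surfactant gene Sftpc among them, were at 0 in all 6 libraries, while Abca3 and Hopx were expressed, at 39.6, 41.0 and 37.1 CPM and 6.39, 12.1 and 14.1 CPM in LLC1 alone. Epcam was at 0.

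Of 12691 genes tested, 5167 (40.7%) differed between LLC1 WT and LLC1 alone at an adjusted p under 0.05 in edgeR's quasi-likelihood test, with 2560 (20.2%) higher and 2607 (20.5%) lower after coculture. Most differences were small. A change of at least 1 on the log2 scale, which is at least 2-fold, was seen in 490 genes (3.86%), of which 331 rose (2.61% of all tested) and 159 fell (1.25%). Rises of this size lay mainly among genes that LLC1 alone hardly expressed: 290 of the 331 (87.6%) had a mean under 1 CPM (counts per 1000000 of the scaled library) in LLC1 alone, against 57 of the 159 falls (35.8%) and 12.2% of all genes tested. This contrast is in part fixed in advance, since a fall of this size has to start higher in LLC1 alone. A gene near 0 there could also enter the test through its counts in LLC1 WT. Falls were not scored by their level in LLC1 WT. Leaving out alone replicate 1 lowered the number of genes that rose to 1663. When the 3 sgPrrx1 libraries were added to the fit the number of changed genes was 1137 (8.83%), with 4.25% of genes higher and 4.58% lower, whereas without sgPrrx1 replicate 3 that fit gave 5779 (44.2%). In bulk RNA of sorted cells, fewer cells of a type and less RNA per cell cannot be told apart. The CPM of the groups did not overlap in 6792 of the 12691 genes tested (53.5%). A lack of overlap, named for single genes below, was therefore common. Here and below, ± after a log2 fold change is its standard error, every log2 fold change is LLC1 WT minus LLC1 alone, and levels are CPM in replicates 1, 2 and 3. In each gene list the 4 members with the largest change past the threshold are named, and any other member named was picked after its values were seen.

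**Figure D1:**
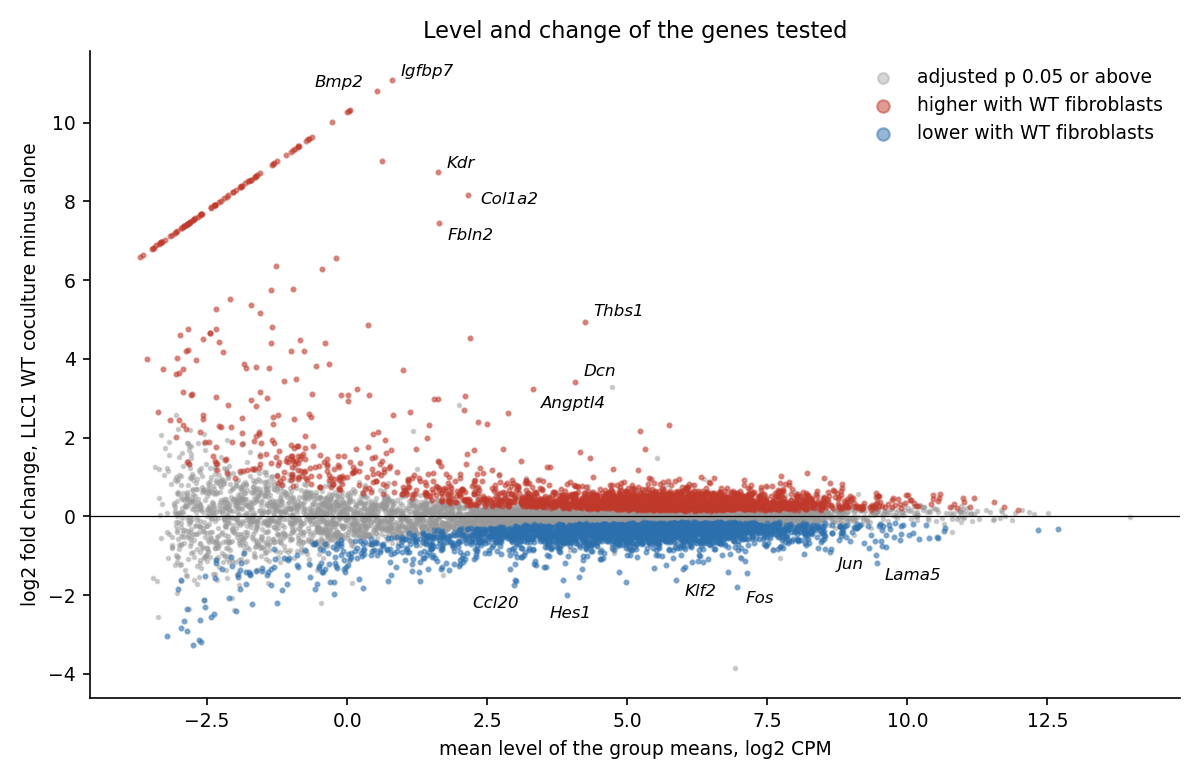
Each point is 1 of 12691 genes, with the mean level of the group means in log2 CPM on the horizontal axis and the log2 fold change of LLC1 WT minus LLC1 alone on the vertical axis. Genes higher after coculture (2560) are red, genes lower (2607) blue and the others grey. The straight upper line of points at low levels is made of genes with no count in LLC1 alone, whose fitted fold change depends on the prior count and is not a measured size.

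The direction of change moved with transcript length and base composition. When the 11849 genes with a known transcript were split by length into 5 equal groups, the median log2 fold change went from 0.17 in the shortest group to -0.15 in the longest, and the share of genes that rose went from 32.2% to 8.78%. By GC content the median went from 0.096 in the lowest group to -0.12 in the highest. An offset that removes both trends, chosen after seeing the data, left medians between 0.003 and 0.014 over the length groups. With it 5926 genes changed (50.0%), with 26.1% of these 11849 genes higher and 23.9% lower, and 4036 were shared with the fit without it, which is 78.1% of the calls without the offset and 68.1% of those with it. The counts of each list below stand against these shares of all genes, 20.2% higher and 20.5% lower without the offset and 26.1% and 23.9% with it. What gives rise to the trend was not tested. Where the offset ended or gave the call of a gene named below with its values, or moved a list's count of rises or falls by more than 1.5 times, this is stated beside it, and it also made some log2 fold changes smaller that kept their call.

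**Figure D2:**
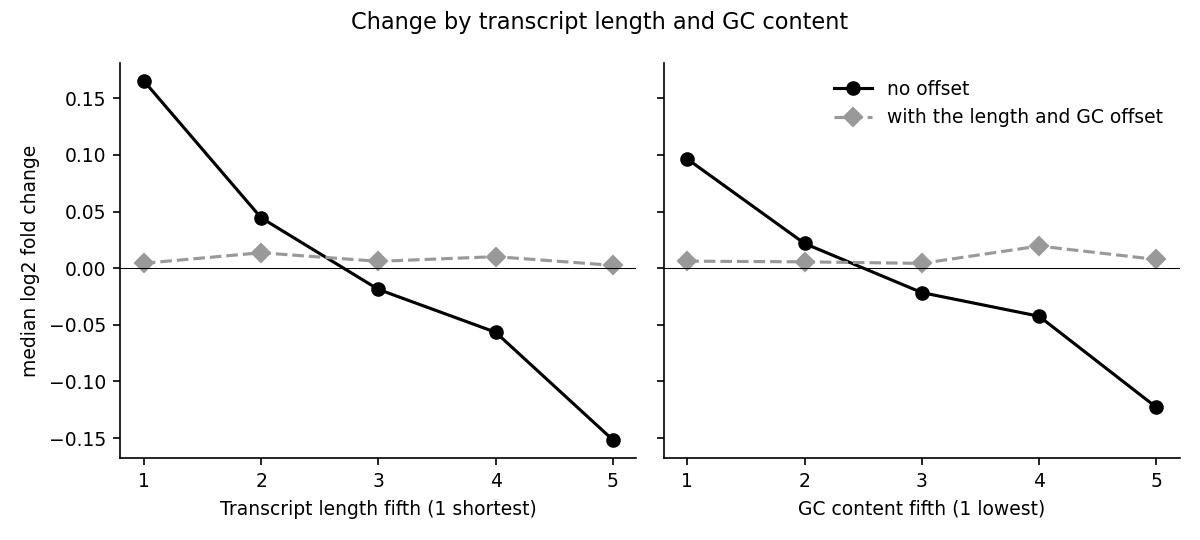
Median log2 fold change of LLC1 WT minus LLC1 alone (vertical axis) in 5 equal groups of genes ordered by transcript length (left) and by GC content (right). Black points are the fit without the offset, which falls from 0.17 to -0.15 with length, and grey diamonds the fit with the offset, which stays close to 0.

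Immediate early genes were lower after coculture. Of 27 members tested 19 fell and 1 rose, and their median log2 fold change was -0.58, where the median of all genes tested was -0.0046 and 20.5% of all genes fell. Fos, which codes for a partner of Jun in AP-1, was at 196, 189 and 196 CPM in LLC1 alone and at 58.1, 56.0 and 54.2 CPM in LLC1 WT (log2 fold change -1.79 ± 0.05, adjusted p = 4.76e-06). All 3 cocultured libraries lay below every library grown alone. Klf2, a zinc finger factor, was at 89.3, 84.0 and 89.9 CPM alone and 29.5, 25.9 and 31.1 CPM after coculture (log2 fold change -1.60 ± 0.08, adjusted p = 3.65e-05). Its relative Klf4 went from 98.8, 98.7 and 96.1 CPM to 42.5, 44.0 and 44.9 CPM (log2 fold change -1.16 ± 0.05, adjusted p = 2.62e-05). Egr2, an early growth response factor, was at 14.3, 14.2 and 13.6 CPM and then 5.69, 5.90 and 6.55 CPM (log2 fold change -1.22 ± 0.08, adjusted p = 0.000122). In none of these genes did the groups overlap, which held for 53.5% of all genes tested. Fosb was at 188, 191 and 184 CPM alone and 85.3, 85.8 and 85.7 CPM after coculture (log2 fold change -1.13 ± 0.05, adjusted p = 3.19e-05). Jun itself went from 509.6, 494 and 528 CPM to 269.8, 264 and 283 CPM (log2 fold change -0.91 ± 0.06, adjusted p = 0.000103). Myc, the growth regulator, went from 912, 940.3 and 979.5 CPM to 557, 536 and 583 CPM (log2 fold change -0.76 ± 0.06, adjusted p = 0.000187). These 3 spanned very different levels, and their libraries within a group lay close together. The only member that rose was Fosl2, a further AP-1 subunit, with a log2 fold change of 0.26, adjusted p = 0.0103, a call that was lost without alone replicate 1. Jund, also of AP-1, did not pass (-1.05, adjusted p = 0.515), being at 284, 261 and 312 CPM alone and 196, 0.922 and 218 CPM after coculture, with WT replicate 2 far below the other 5 libraries. The count of 19 falls stayed at 18 or 19 whichever library was left out and was 19 with the offset. In the sgPrrx1 cocultures Fos was at 69.0, 66.9 and 53.5 CPM and Klf2 at 29.8, 30.1 and 39.8 CPM.

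Several regulators that damp the MAPK pathway fell as well. Of 17 tested, where 20.5% of all genes fell, 10 fell and 1, the phosphatase gene Dusp5 (log2 fold change 0.18, adjusted p = 0.0402), rose, a call that was lost in each of the 6 leave-one-out fits. The median was -0.27, and with the offset 10 fell and 2 rose. Dusp1, which codes for a nuclear phosphatase of MAP kinases, was at 202, 199.6 and 219 CPM alone and 75.6, 74.5 and 78.4 CPM after coculture (log2 fold change -1.44 ± 0.06, adjusted p = 2.62e-05). Spry1, a Sprouty inhibitor of receptor kinase signalling, went from 11.3, 12.6 and 13.0 CPM to 4.27, 4.45 and 3.10 CPM (log2 fold change -1.64 ± 0.14, adjusted p = 0.000312). Both were lower in every cocultured library than in any library grown alone. Dusp2 (-0.64, adjusted p = 0.000693) and Spry4 (-0.44, adjusted p = 0.00139) changed less.

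Among changed genes with a mean of at least 100 counts, the largest fall belonged to the Notch pathway. Hes1, the transcriptional repressor that Notch signalling switches on, lies on chr16:30065357-30067796 (GRCm38) and was at 23.5, 23 and 25.9 CPM in LLC1 alone against 6.89, 5.15 and 6.12 CPM in LLC1 WT (log2 fold change -1.99 ± 0.11, adjusted p = 7.22e-05), a 3.98-fold lower level. Of 24 members of the pathway 12 fell and none rose, where 20.2% of all genes rose, and with the offset 1 rose. The median was -0.30, and -0.20 with the offset. Among receptors and cofactors, Maml2, a coactivator of the Notch complex, was at 20.1, 21.2 and 18.1 CPM and then 11.2, 12.9 and 10.9 CPM (log2 fold change -0.76 ± 0.09, adjusted p = 0.000932), and Nrarp, a feedback inhibitor, was at 4.54, 4.74 and 4.80 CPM and then 3.20, 2.94 and 2.41 CPM (log2 fold change -0.72 ± 0.13, adjusted p = 0.00409). The receptor gene Notch3 went from 4.68, 4.40 and 4.61 CPM to 3.16, 2.77 and 2.35 CPM (log2 fold change -0.72 ± 0.13, adjusted p = 0.00439), and with the offset it did not pass (-0.33, adjusted p = 0.0742). Groups did not overlap in any of the 4. The ligand genes Jag1 (log2 fold change -0.21, adjusted p = 0.0729) and Dll1 (0.25, adjusted p = 0.077) did not pass, and Dll1 passed with the offset (0.39, adjusted p = 0.0109).

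Targets of YAP and TEAD, the effectors of the Hippo pathway that respond to cell shape and contact, had more falls than rises. Of 28 tested 15 fell and 3 rose (20.5% and 20.2% of all genes), with a median of -0.32 that was -0.16 with the offset, where 14 fell and 6 rose (23.9% and 26.1% of all genes). Leaving out WT replicate 1 lowered the number that fell to 9. Axl, a receptor kinase, was at 1099, 1080.5 and 573 CPM alone and 468, 498 and 439 CPM after coculture (log2 fold change -0.97 ± 0.22, adjusted p = 0.0117). Here alone replicate 3 stood well below its replicates, and the difference did not pass without WT replicate 3 (adjusted p = 0.0513). F3, tissue factor, went from 77.1, 78.7 and 78.3 CPM to 49.9, 46.4 and 54.9 CPM (log2 fold change -0.63 ± 0.07, adjusted p = 0.000625). Cyr61, a classical YAP target, fell as well (-0.60, adjusted p = 0.000472), whereas the values of Ctgf (0.30, adjusted p = 0.343) and Ankrd1 (-0.03, adjusted p = 0.732) did not pass. Ankrd1 passed with the offset (-0.19, adjusted p = 0.00927). The 3 that rose without the offset were Tgfb2, Nt5e and Tead4.

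Interferon-stimulated genes, the antiviral set that cells switch on in response to interferon, fell in part and by modest amounts. Of 47 tested 22 fell, 6 rose and 19 did not pass, where 20.5% of all genes fell and 20.2% rose, with a median of -0.22. With the offset 29 fell and 7 rose (23.9% and 26.1% of all genes), and without alone replicate 1 only 3 rose. Oas3, which makes the oligoadenylates that activate RNase L, was at 167, 167 and 153 CPM in LLC1 alone and at 92.1, 94.3 and 82.1 CPM in LLC1 WT (log2 fold change -0.86 ± 0.07, adjusted p = 0.000279), and Oas2 was at 43.4, 46.3 and 42.5 CPM and then 26.2, 26.4 and 24.8 CPM (log2 fold change -0.77 ± 0.06, adjusted p = 0.000236). Rsad2, the antiviral enzyme viperin, went from 324, 316 and 318 CPM to 209, 213 and 209.7 CPM (log2 fold change -0.60 ± 0.05, adjusted p = 0.000285). The mitochondrial protein gene Ifi27 went from 77.9, 78.8 and 101 CPM to 55.5, 51.1 and 54.1 CPM (log2 fold change -0.68 ± 0.10, adjusted p = 0.00219), with alone replicate 3 above its replicates. Against these, Gbp2, a guanylate-binding GTPase, rose from 44.0, 43.4 and 44.6 CPM to 63.3, 64.4 and 68.6 CPM (log2 fold change 0.57 ± 0.05, adjusted p = 0.000356), and Ifit1, which binds foreign RNA, rose by less (0.25, adjusted p = 0.0107). Ifit1 was at 155, 155 and 153 CPM and then 184, 175 and 191 CPM, and groups did not overlap in any of these 6. The signal transducers Stat2 (-0.28, adjusted p = 0.00394) and Irf9 (-0.35, adjusted p = 0.00215) fell.

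Part of this list carried a promoter feature that its choice did not use. The interferon-stimulated response element, searched as GAAA, any 2 bases and GAAA on both strands in the 250 bases before the annotated start (RefSeq, GRCm38.p6), was found in 16 of the 35 members whose promoter matched (45.7%), against 3.12% of 9615 tested genes and 3.46% of 27025 promoters. It was found in 8 of 17 members that fell, 2 of 4 that rose and 6 of 14 that did not pass, so members with it went both ways. The promoters of 2 members that fell and 2 that rose are shown to let the element be compared between directions, 5′ to 3′ on the strand of the gene, cut where they would enter the annotated gene, with the element in capitals in either orientation. They are Oas3 at chr5:120777685-120777909 (minus strand), Rsad2 at chr12:26456453-26456702 (minus strand), Gbp2 at chr3:142620413-142620662 (plus strand) and Ifit1 at chr19:34640639-34640888 (plus strand). A match is a description of the letters and not a bound site.
Oas3: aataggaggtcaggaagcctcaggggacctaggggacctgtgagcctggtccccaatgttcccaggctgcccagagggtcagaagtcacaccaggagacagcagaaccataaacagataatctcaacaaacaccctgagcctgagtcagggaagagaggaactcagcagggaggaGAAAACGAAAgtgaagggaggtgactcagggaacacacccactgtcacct
Rsad2: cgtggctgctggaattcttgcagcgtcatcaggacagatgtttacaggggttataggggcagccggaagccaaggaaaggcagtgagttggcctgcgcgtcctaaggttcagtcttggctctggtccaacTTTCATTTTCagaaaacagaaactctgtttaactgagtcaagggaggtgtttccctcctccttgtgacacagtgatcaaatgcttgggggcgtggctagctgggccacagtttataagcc
Gbp2: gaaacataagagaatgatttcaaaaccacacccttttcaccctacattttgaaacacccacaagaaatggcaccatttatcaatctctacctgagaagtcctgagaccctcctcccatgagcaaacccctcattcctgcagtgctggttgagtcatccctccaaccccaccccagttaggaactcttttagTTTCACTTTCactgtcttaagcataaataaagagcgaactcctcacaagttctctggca
Ifit1: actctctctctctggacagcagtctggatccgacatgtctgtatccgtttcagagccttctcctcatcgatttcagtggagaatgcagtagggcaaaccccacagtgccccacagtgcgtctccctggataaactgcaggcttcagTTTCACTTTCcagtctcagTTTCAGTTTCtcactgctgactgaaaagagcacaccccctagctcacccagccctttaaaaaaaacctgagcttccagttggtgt

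The element stands in this orientation in Oas3, which fell, and as its reverse complement in Rsad2, which fell, and in Gbp2 and Ifit1, which rose, with Ifit1 holding 2 copies. The CArG box, the binding motif of the serum response factor, was found in 3 of 21 matched immediate early genes (14.3%), against 1.39% of tested genes and 1.62% of all promoters. The box was found in 2 of 14 members that fell, 0 of 1 that rose and 1 of 6 that did not pass, so it did not mark the falls. Zfp36, an RNA-binding protein that shortens cytokine transcripts, holds it (capitals, chr7:28379229-28379478, minus strand) and fell from 89.3, 86.8 and 90.3 CPM to 51.0, 50.2 and 53.3 CPM (log2 fold change -0.79 ± 0.05, adjusted p = 0.0001).
Zfp36: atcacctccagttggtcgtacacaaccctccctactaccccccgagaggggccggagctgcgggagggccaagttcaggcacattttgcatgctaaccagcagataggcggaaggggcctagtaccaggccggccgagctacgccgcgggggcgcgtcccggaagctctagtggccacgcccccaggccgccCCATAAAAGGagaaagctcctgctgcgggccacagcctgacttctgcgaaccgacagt

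In the NF-kB and IL-6 lists more members fell than rose, where 20.5% of all genes fell. Of 25 NF-kB targets and regulators 13 fell and 2 rose (median -0.20), with the offset 12 fell and 4 rose, and the number that fell was 8 without alone replicate 1. Csf1, the growth factor of macrophages, was abundant, at 797, 806 and 818 CPM in LLC1 alone and 471, 469 and 448 CPM in LLC1 WT (log2 fold change -0.80 ± 0.05, adjusted p = 9.24e-05). The NF-kB subunit Relb went from 39.5, 37.8 and 44.4 CPM to 26.2, 24.6 and 25.4 CPM (log2 fold change -0.68 ± 0.07, adjusted p = 0.000686). Csf3, the growth factor of granulocytes, went the other way from a low level, from 0.629, 0.869 and 0.946 CPM to 2.69, 2.51 and 2.69 CPM (log2 fold change 1.69 ± 0.19, adjusted p = 0.000693). Of 20 genes of the IL-6 family and Stat3 10 fell and 3 rose (median -0.21), with 6 falls when WT replicate 1, WT replicate 3 or alone replicate 1 was left out. Socs3, the feedback inhibitor that Stat3 induces, was at 136, 131 and 144 CPM and then 68.7, 71.3 and 68.1 CPM (log2 fold change -0.98 ± 0.06, adjusted p = 7.22e-05), and the kinase gene Tyk2 was at 68.4, 69.9 and 69.7 CPM and then 40.3, 38.0 and 36.1 CPM (log2 fold change -0.86 ± 0.06, adjusted p = 0.000114). Il6 was near 1 CPM throughout, at 1.30, 1.33 and 1.37 CPM and then 0.885, 0.922 and 0.778 CPM, and its fall (-0.63, adjusted p = 0.021) did not pass in 5 of 6 leave-one-out fits (adjusted p = 0.0506 to 0.0687). The ligand genes Lif (0.45, adjusted p = 0.000794), Il11 (0.62, adjusted p = 0.00107) and Clcf1 (0.60, adjusted p = 0.0027) rose.

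Of 18 chemokine genes tested 3 rose and 5 fell, where 20.2% and 20.5% of all genes did, and with the offset 1 rose and 9 fell of 16. The number that rose was 1 without WT replicate 1 and 8 without alone replicate 3, and the number that fell was 3 without WT replicate 1. Ccl20, which draws cells that carry Ccr6, was at 12.5, 11.0 and 12.8 CPM in LLC1 alone and at 3.36, 3.55 and 3.92 CPM in LLC1 WT (log2 fold change -1.74 ± 0.10, adjusted p = 7.22e-05). Cx3cl1, the membrane-bound fractalkine, went from 91.5, 90.7 and 93.5 CPM to 38.3, 37.2 and 33.0 CPM (log2 fold change -1.35 ± 0.07, adjusted p = 3.82e-05). For both, all cocultured libraries lay below those grown alone. Ccl8 rose from 0.453, 0.735 and 0.854 CPM to 1.45, 1.11 and 1.87 CPM (log2 fold change 1.12 ± 0.29, adjusted p = 0.0192), a call that was lost without WT replicate 1, WT replicate 3 or alone replicate 1 (adjusted p = 0.0544, 0.075 and 0.0586), and Cxcl2 had a call (0.92, adjusted p = 0.0459) that was lost in 4 of 6 leave-one-out fits (adjusted p = 0.101 to 0.156) and with the offset (0.72, adjusted p = 0.0737).

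Genes of cholesterol and fatty acid synthesis, which Srebf2 and Srebf1 switch on when sterol is short, were lower almost throughout. Of 34 tested 26 fell and 1 rose, where 20.5% and 20.2% of all genes did, with a median of -0.39, and with the offset 29 of 33 fell. Acss2, which makes acetyl-CoA from acetate, was at 43.6, 42.7 and 45.7 CPM alone and 23.6, 23.1 and 20.6 CPM after coculture (log2 fold change -0.97 ± 0.07, adjusted p = 0.000173). Fdps, which makes farnesyl diphosphate, went from 149, 142 and 167 CPM to 94.7, 81.4 and 91.4 CPM (log2 fold change -0.77 ± 0.08, adjusted p = 0.000646), and Fads2, a fatty acid desaturase, went from 17.2, 15.6 and 14.4 CPM to 7.88, 10.0 and 9.36 CPM (log2 fold change -0.80 ± 0.11, adjusted p = 0.00151). Groups did not overlap in these 3. Srebf2 itself fell (-0.55, adjusted p = 0.000712), as did the lanosterol synthase gene Lss (-0.71, adjusted p = 0.000464), and Hmgcs1 did not pass (-0.13, adjusted p = 0.12). The number that fell was 22 to 30 over the leave-one-out fits.

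The CCAAT box, which nuclear factor Y binds beside sterol response elements, was found in 19 of 23 matched members (82.6%) on either strand, against 41.3% of tested genes and 37.5% of all promoters. It was found in 13 of 16 members that fell and in 6 of 7 that did not pass. The promoters of Acss2 (chr2:155517793-155518042, plus strand), the member with the largest fall, and of Lss (chr10:76531355-76531564, plus strand) are shown, with the box in capitals on the complementary strand as ATTGG.
Acss2: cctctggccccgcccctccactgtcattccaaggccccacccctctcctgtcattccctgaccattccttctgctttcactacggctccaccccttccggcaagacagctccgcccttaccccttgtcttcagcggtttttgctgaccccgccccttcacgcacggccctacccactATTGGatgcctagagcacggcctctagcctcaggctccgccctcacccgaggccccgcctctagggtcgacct
Lss: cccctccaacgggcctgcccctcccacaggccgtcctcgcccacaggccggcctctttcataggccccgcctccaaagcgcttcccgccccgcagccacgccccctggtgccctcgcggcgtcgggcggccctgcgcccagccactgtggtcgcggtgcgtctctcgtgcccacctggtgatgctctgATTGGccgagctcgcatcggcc

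**Figure D3:**
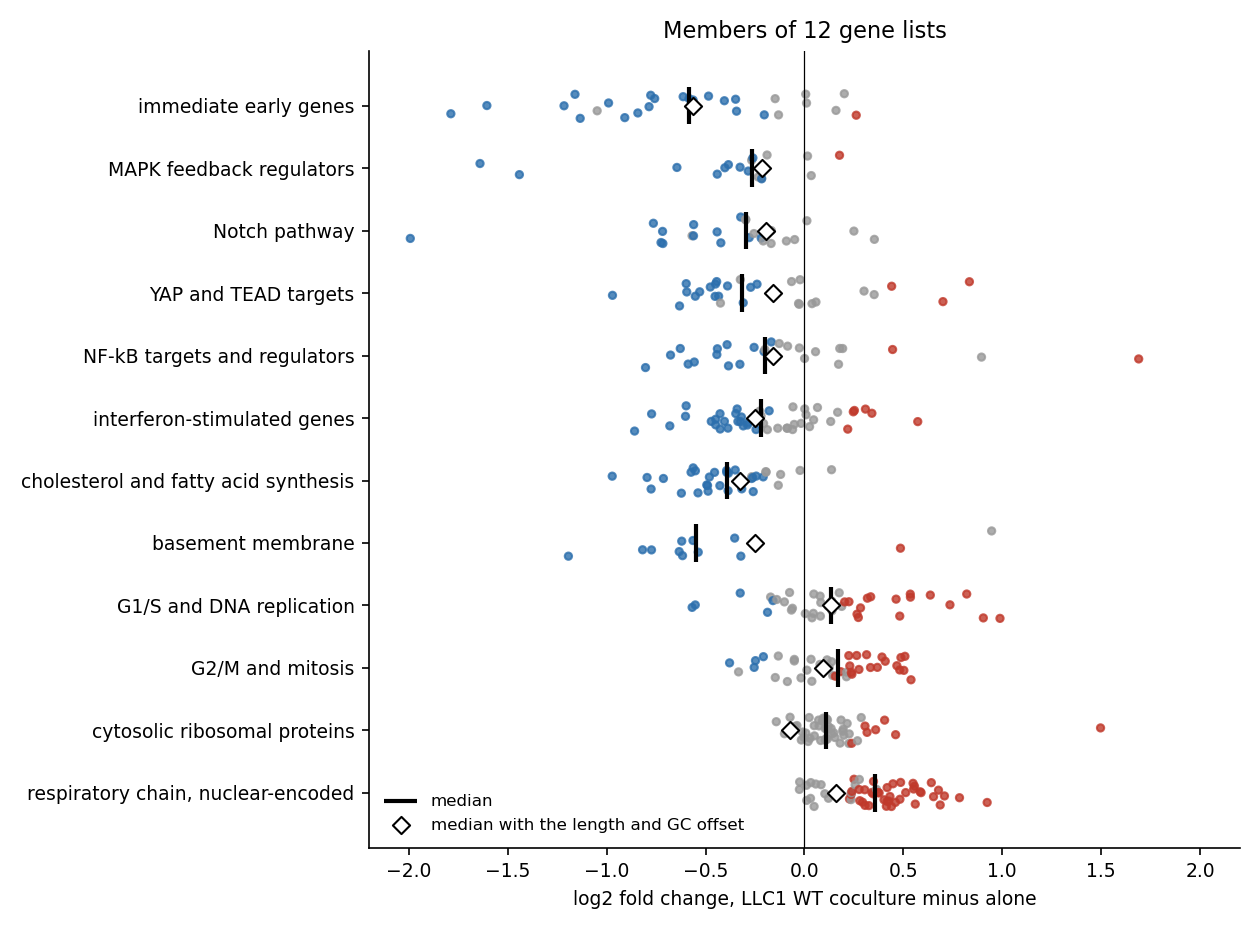
Members of 12 gene lists as points, with the log2 fold change of LLC1 WT minus LLC1 alone on the horizontal axis, red for higher, blue for lower and grey for not passed. Black bars are list medians and open diamonds the medians with the offset for length and GC content. Medians run from -0.58 in immediate early genes to 0.36 in the respiratory chain, and members beyond the edges, Col4a5 and Nid2 among them, are not drawn.

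Nuclear-encoded subunits of the respiratory chain rose as a group of small changes. Of 56 tested 40 rose and none fell, with a median of 0.36, where 20.2% of all genes tested rose. These are short transcripts, and with the offset 31 rose and 3 fell with a median of 0.16. Cycs, cytochrome c, had the largest rise, from 88.8, 87.9 and 103 CPM in LLC1 alone to 171, 164 and 196 CPM in LLC1 WT (log2 fold change 0.92 ± 0.09, adjusted p = 0.000511), and its log2 fold change was 0.79, adjusted p = 0.000287 with the offset. Uqcrq and Uqcrb, subunits of complex III, went from 43.1, 34.7 and 43.5 CPM to 77.1, 68.5 and 63.1 CPM (log2 fold change 0.78 ± 0.11, adjusted p = 0.00147) and from 46.3, 49.7 and 56.3 CPM to 80.1, 72.1 and 96.4 CPM (log2 fold change 0.71 ± 0.12, adjusted p = 0.00295). Their log2 fold changes with the offset were 0.65 and 0.22. Ndufa1 of complex I, at 23.6, 24.6 and 30.6 CPM and then 38.1, 38.5 and 50.1 CPM, went from a log2 fold change of 0.69 to 0.26 with the offset. Cytosolic ribosomal protein genes, which are short as well, changed in their counts of calls with the offset and when 1 library was left out. Of 51 tested 7 rose and none fell, and with the offset 2 rose and 21 fell. The number that rose was 1 without alone replicate 1 or 2, 2 without WT replicate 1 or 3, and 35 without alone replicate 3. Rpl26 was the one with the largest rise, at 0.830, 0.796 and 0.591 CPM and then 1.92, 1.90 and 2.46 CPM (log2 fold change 1.50 ± 0.20, adjusted p = 0.00149). Rpl35 (0.41, adjusted p = 0.0148), Rps28 (0.46, adjusted p = 0.0403) and Rps24 (0.36, adjusted p = 0.03) had calls that were less firm, lost for Rpl35 without alone replicate 1 or alone replicate 2 (adjusted p = 0.059 and 0.052), for Rps28 in 5 of 6 leave-one-out fits (adjusted p = 0.0528 to 0.135) and for Rps24 in 4 of 6 leave-one-out fits (adjusted p = 0.0672 to 0.106). With the offset neither Rps28 (0.21, adjusted p = 0.0691) nor Rps24 (0.01, adjusted p = 0.859) passed.

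Among cell cycle genes more members rose than fell. Over all genes tested 20.2% rose and 20.5% fell, and with the offset 26.1% and 23.9%. Of 40 genes of the G1/S transition and DNA replication 16 rose and 5 fell, and of 40 of G2/M and mitosis 19 rose and 4 fell, which became 11 rises without alone replicate 1 and 9 falls with the offset. The G1/S falls numbered 3 without WT replicate 1 or alone replicate 1. Ccne2 and Ccne1, the E cyclins that start S phase, went from 13.7, 14.7 and 13.6 CPM to 27.5, 25.3 and 30.4 CPM (log2 fold change 0.99 ± 0.08, adjusted p = 0.000285) and from 28.3, 29.5 and 31.4 CPM to 53.6, 51.4 and 52.4 CPM (log2 fold change 0.82 ± 0.06, adjusted p = 0.000167). Rrm2, which supplies deoxynucleotides, went from 127, 123 and 128 CPM to 211, 209 and 210.3 CPM (log2 fold change 0.74 ± 0.05, adjusted p = 0.000145). Slbp, the histone stem-loop binding protein, was at 43.4, 37.8 and 39.5 CPM alone and 51.8, 83.7 and 90.4 CPM after coculture (log2 fold change 0.90 ± 0.19, adjusted p = 0.00771), with WT replicate 1 nearer to the libraries grown alone than to its replicates. Among mitotic genes Birc5, survivin, was at 74.6, 76.3 and 88.0 CPM and then 125, 104 and 118 CPM (log2 fold change 0.54 ± 0.09, adjusted p = 0.00338), and Ccnb1, cyclin B1, at 77.8, 79.5 and 81.5 CPM and then 113, 115 and 111 CPM (log2 fold change 0.50 ± 0.05, adjusted p = 0.000451). Aurka (0.51, adjusted p = 0.000693) and Nuf2 (0.49, adjusted p = 0.00132) rose by similar sizes, whereas Mki67, a common proliferation marker, did not pass (-0.33, adjusted p = 0.111) and with the offset was called lower (-0.12, adjusted p = 0.0468). Of 27 p53 targets 10 rose and 7 fell. Ccng1, cyclin G1, rose from 333, 339.9 and 310.4 CPM to 577, 574 and 589.6 CPM (log2 fold change 0.82 ± 0.06, adjusted p = 0.000144), Trp53inp1 rose (0.65, adjusted p = 0.00113) and Btg2 fell (-0.56, adjusted p = 0.000849). Pmaip1 rose (0.56, adjusted p = 0.021), but not without WT replicate 3 or alone replicate 1 (adjusted p = 0.0631 and 0.067).

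Among matrix genes, several that were abundant in LLC1 alone fell and several that were near 0 there rose. Of 14 basement membrane genes 10 fell and 3 rose, where 20.5% and 20.2% of all genes did, with a median of -0.55. The median was -0.25 with the offset. Lama5, a laminin chain, was at 1024, 1035 and 860.1 CPM in LLC1 alone and 425, 500.2 and 351 CPM in LLC1 WT (log2 fold change -1.19 ± 0.13, adjusted p = 0.000715), and its log2 fold change was -0.74 with the offset. Agrn, the proteoglycan agrin, went from 484, 492 and 445 CPM to 267, 292 and 247 CPM (log2 fold change -0.82 ± 0.08, adjusted p = 0.000441), with -0.48 under the offset. Their groups did not overlap. Against these abundant genes, Nid2 had no count alone and 12, 26 and 15 counts after coculture (at least 6.22-fold higher against a floor of 3 counts per library, which takes a listed 0 as a true zero), and Col4a5 had 2, 0 and 0 counts and then 54, 34 and 17, a ratio of 55.1 (95% counting interval 14.9 to 461). Of 11 fibrillar and fibroblast collagens 4 rose and 6 fell, and their median went from -0.22 to 0.065 with the offset. Col3a1, at 1637, 1551 and 1594 CPM and then 1107, 1107 and 1078 CPM, fell (-0.54, adjusted p = 0.000275). The genes of type I collagen rose from near 0. Col1a1 was at 0.528, 0.355 and 0.250 CPM and then 8.16, 10.8 and 7.30 CPM (log2 fold change 4.53 ± 0.26, adjusted p = 7.22e-05), and Col1a2 had 0, 2 and 5 counts and then 747, 646 and 611 (log2 fold change 8.15 ± 0.34, adjusted p = 2.62e-05). Col12a1 (1.32, adjusted p = 0.000932) and Col5a2 (2.57, adjusted p = 0.00978) also rose.

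Of 20 genes that process or crosslink collagen 5 rose and 9 fell, where 20.2% and 20.5% of all genes did. Lox and Loxl2, which crosslink collagen, rose from 0.101, 0.0490 and 0.0526 CPM to 1.38, 1.49 and 1.49 CPM (log2 fold change 4.40 ± 0.30, adjusted p = 0.000144) and from 0.0629, 0.135 and 0.0657 CPM to 1.02, 1.71 and 1.08 CPM (log2 fold change 3.82 ± 0.39, adjusted p = 0.00054). Their relative Loxl3, expressed at 54.0, 55.8 and 57.5 CPM alone, fell to 34.9, 36.1 and 33.2 CPM (log2 fold change -0.68 ± 0.06, adjusted p = 0.000273). Among 23 matricellular and elastic fibre genes 7 rose and 7 fell. Thbs1, thrombospondin 1, lies on chr2:118111876-118127133 and went from 1.43, 1.21 and 0.933 CPM to 36.4, 38.8 and 34.4 CPM (log2 fold change 4.93 ± 0.14, adjusted p = 4.35e-06), a 30.5-fold rise. The proteoglycan genes Dcn and Bgn went from 2.11, 2.64 and 3.90 CPM to 30.1, 27.9 and 33.7 CPM (log2 fold change 3.41 ± 0.21, adjusted p = 8.7e-05) and from 1.96, 2.15 and 2.04 CPM to 11.8, 13.6 and 12.5 CPM (log2 fold change 2.62 ± 0.10, adjusted p = 1.49e-05). Fbln2, fibulin 2, had 0, 6 and 2 counts alone and 557, 394 and 454 after coculture (log2 fold change 7.46 ± 0.40, adjusted p = 6.45e-05). In the sgPrrx1 cocultures Thbs1 was at 5.13, 4.38 and 1.06 CPM, Bgn at 2.04, 2.24 and 2.90 CPM and Fbln2 at 0.669, 0.646 and 0.652 CPM, while Dcn was at 21.5, 20.6 and 22.3 CPM.

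Of 22 matrix proteases and inhibitors 9 rose and 4 fell, where 20.2% and 20.5% of all genes did. Timp3, an inhibitor held in the matrix, rose from 0.226, 0.416 and 0.184 CPM to 2.33, 2.13 and 2.62 CPM (log2 fold change 3.08 ± 0.29, adjusted p = 0.000412), and Adam8, a membrane metalloprotease, rose from 2.45, 2.38 and 2.01 CPM to 8.48, 7.21 and 6.15 CPM (log2 fold change 1.67 ± 0.15, adjusted p = 0.000339). Mmp2, gelatinase A, was at 0.101, 0 and 0.158 CPM alone and 1.11, 1.13 and 0.668 CPM after coculture (log2 fold change 3.49 ± 0.65, adjusted p = 0.00516). Serpine2, protease nexin 1, had no count alone and 72, 67 and 106 counts after coculture, at least 28.7-fold higher. Mmp13, a collagenase, fell (-1.33, adjusted p = 7.17e-05), and the plasminogen activator gene Plau (0.71, adjusted p = 0.000173) rose. Of 14 integrin genes 2 rose and 5 fell, and with the offset 6 rose and 5 fell. The number that fell was 3 without WT replicate 1 or 3 or alone replicate 1 or 2. Itga2, a collagen receptor chain, was at 0.717, 0.343 and 0.460 CPM and then 2.92, 3.80 and 2.37 CPM (log2 fold change 2.58 ± 0.30, adjusted p = 0.000806), and Itga10 was at 6.86, 6.39 and 6.65 CPM and then 3.10, 3.16 and 3.48 CPM (log2 fold change -1.03 ± 0.09, adjusted p = 0.000391). Itgb5 fell (-0.57, adjusted p = 0.000412), and Itgb3 had 0, 0 and 2 counts and then 14, 14 and 27, a ratio of 28.9 (95% counting interval 7.62 to 244).

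Several ligands of the EGF receptor family rose. Btc was at 8.42, 8.85 and 8.28 CPM in LLC1 alone and 13.7, 13.4 and 13.8 CPM in LLC1 WT (log2 fold change 0.68 ± 0.07, adjusted p = 0.000472), Areg at 100.3, 99.3 and 105 CPM and then 152, 149 and 174 CPM (log2 fold change 0.64 ± 0.07, adjusted p = 0.000745), and Ereg at 74.7, 76.7 and 67.3 CPM and then 106, 107 and 107 CPM (log2 fold change 0.55 ± 0.06, adjusted p = 0.000716). Together with Hbegf (0.41, adjusted p = 0.00153) these were the 4 of 11 genes of the family that rose, while 3 fell, among them the receptor gene Erbb3 (-0.82, adjusted p = 0.0113). With the offset 5 rose and 1 fell. Of 24 genes of the TGF-beta pathway 6 rose and 11 fell, where 20.2% and 20.5% of all genes did. Inhba, which codes for the activin A chain, went from 0.830, 0.686 and 0.434 CPM to 4.69, 5.35 and 5.51 CPM (log2 fold change 2.99 ± 0.22, adjusted p = 0.000173). Inhbb and the feedback gene Pmepa1 had no count alone and 59, 71 and 60 and 24, 40 and 34 counts after coculture, at least 22.2-fold and 11.5-fold higher. Ltbp3, which stores latent TGF-beta in the matrix, fell from 375, 372 and 385 CPM to 198, 194 and 189 CPM (log2 fold change -0.96 ± 0.05, adjusted p = 6.7e-05).

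Of 22 BMP pathway and Id genes 7 rose and 3 fell (20.2% and 20.5% of all genes), with 6 falls when alone replicate 3 was left out. Bmp2, a ligand, lies on chr2:133552159-133562896 and had no count in any library grown alone and 217, 196 and 238 counts after coculture, at least 75.9-fold higher. In the sgPrrx1 cocultures it had 11, 14 and 2 counts. Id1, a target of BMP signalling, rose from 20.7, 20.1 and 23 CPM to 37.9, 35.4 and 40.5 CPM (log2 fold change 0.83 ± 0.08, adjusted p = 0.000418), and the secreted BMP antagonists Grem1 and Nbl1 rose from 66.8, 72.6 and 52.8 CPM to 114, 124 and 107 CPM (log2 fold change 0.84 ± 0.12, adjusted p = 0.00162) and from 0.101, 0.122 and 0.0788 CPM to 1.77, 1.36 and 1.38 CPM (log2 fold change 3.87 ± 0.28, adjusted p = 0.000167). Of 8 genes of the IGF axis 2 rose and 5 fell, and 1 rose in 4 of the leave-one-out fits (all but those without WT replicate 2 or alone replicate 3). Igfbp7, a secreted binding protein, had no count alone and 235, 239 and 315 counts after coculture, at least 92.3-fold higher, and 16, 10 and 22 counts in the sgPrrx1 cocultures. The receptor genes Insr and Igf2r fell from 126, 132 and 98.5 CPM to 64.4, 78.0 and 59.3 CPM (log2 fold change -0.82 ± 0.13, adjusted p = 0.00294) and from 299.9, 313 and 251 CPM to 184, 200.3 and 158 CPM (log2 fold change -0.67 ± 0.11, adjusted p = 0.0032), and Irs2 fell too (-0.81, adjusted p = 0.00749).

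Among 17 angiogenic factors and receptors 4 rose and 2 fell (20.2% and 20.5% of all genes), with 1 fall without WT replicate 1 or 2 or alone replicate 1. With the offset 6 rose and 4 fell. Angptl4, a secreted inhibitor of lipoprotein lipase, went from 1.86, 1.93 and 1.93 CPM to 17.5, 17.2 and 19.0 CPM (log2 fold change 3.23 ± 0.08, adjusted p = 2.52e-06) and was at 17.1, 16.5 and 27.2 CPM in the sgPrrx1 cocultures. Kdr, the main VEGF receptor of endothelium, had 0, 3 and 0 counts alone and 496, 488 and 408 after coculture, a ratio of 487 (95% counting interval 166 to 2363), and 24, 10 and 0 counts with sgPrrx1 fibroblasts. Vegfd rose from 5.92, 6.69 and 6.50 CPM to 11.5, 11.8 and 12.4 CPM (log2 fold change 0.90 ± 0.08, adjusted p = 0.000354), Pgf had a call (0.63, adjusted p = 0.0428) that was lost in 5 of 6 leave-one-out fits (adjusted p = 0.0695 to 0.121), and Vegfa did not pass (0.00, adjusted p = 0.955). Of 26 Wnt pathway genes 2 rose and 6 fell, the latter near the 20.5% of all genes. There were 1 rise and 2 falls without WT replicate 1 or alone replicate 1 and 3 falls without alone replicate 2, and with the offset 5 rose and 4 fell. Lrp5, a Wnt coreceptor, fell from 90.6, 89.3 and 85.9 CPM to 54.8, 54.2 and 49.2 CPM (log2 fold change -0.75 ± 0.06, adjusted p = 0.000241), Fzd4 fell (-0.99, adjusted p = 0.00534) and Fzd1 rose from 0.0755, 0.0367 and 0 CPM to 0.430, 0.488 and 0.682 CPM (log2 fold change 3.76 ± 0.63, adjusted p = 0.00322). Wnt6 fell (-1.10, adjusted p = 0.02), but not in 4 of 6 leave-one-out fits (adjusted p = 0.0545 to 0.076).

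Of 37 genes of the ATF4 and amino acid response 15 fell and 3 rose, with a median of -0.16 and 6 rises without alone replicate 3. Fgf21, a hormone made under amino acid stress, was at 1.84, 1.42 and 1.93 CPM and then 0.430, 0.705 and 0.600 CPM (log2 fold change -1.58 ± 0.24, adjusted p = 0.00216), and Pycr1, a proline synthesis enzyme, at 51.9, 51.3 and 55.3 CPM and then 28.9, 28.5 and 27.1 CPM (log2 fold change -0.91 ± 0.06, adjusted p = 0.0001). Vldlr rose from 0, 0.110 and 0.0394 CPM to 0.582, 0.813 and 0.723 CPM (log2 fold change 3.76 ± 0.64, adjusted p = 0.00349), and Stc2 had no count alone and 63, 46 and 36 counts after coculture, at least 16.8-fold higher. Of 24 endoplasmic reticulum chaperones and XBP1 targets 6 rose and 7 fell, where 20.2% and 20.5% of all genes did. The chaperone gene Calr went up from 1220.4, 1184 and 1295 CPM to 1775, 1777 and 1939 CPM (log2 fold change 0.57 ± 0.06, adjusted p = 0.00051), and Herpud1 (-0.52, adjusted p = 0.000625), Atf6 (-0.44, adjusted p = 0.0102) and Sel1l (-0.41, adjusted p = 0.00677) went down. In the NRF2 list 5 of 32 rose and 4 fell, and with the offset 8 rose and 11 fell. The rises numbered 3 without WT replicate 1 or 3 or alone replicate 1 or 2, and 10 without alone replicate 3. Hmox1, heme oxygenase, rose (0.71, adjusted p = 0.000525) with Gss (0.55, adjusted p = 0.00795), and Gstm1, a glutathione transferase, fell from 248, 259 and 287 CPM to 159, 141 and 149 CPM (log2 fold change -0.82 ± 0.08, adjusted p = 0.000411). Cbr1 fell (-0.53, adjusted p = 0.0421), but not in 5 of 6 leave-one-out fits (adjusted p = 0.0534 to 0.13).

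Of 29 hypoxia response genes 8 rose and 5 fell, and of 23 glycolysis genes 4 rose and 5 fell, shares near those of all genes (20.2% and 20.5%), the latter list with 9 and 4 under the offset. Without WT replicate 1 the hypoxia list had 5 rises and 3 falls, with 3 falls also without WT replicate 3 or alone replicate 1 or 2, and the glycolysis list had 2 rises without WT replicate 1 or alone replicate 1 and 8 without alone replicate 3. Ldha, lactate dehydrogenase, rose from 1249, 1172 and 1376 CPM to 1811, 1687 and 1762 CPM (log2 fold change 0.47 ± 0.07, adjusted p = 0.00167), and Slc16a3, a lactate exporter, rose from 0.113, 0.196 and 0.342 CPM to 2.02, 2.29 and 1.77 CPM (log2 fold change 3.22 ± 0.34, adjusted p = 0.000577). Hk2, hexokinase 2, fell from 218, 214 and 203 CPM to 151, 149 and 144 CPM (log2 fold change -0.52 ± 0.06, adjusted p = 0.000684), and Pfkm fell (-0.27, adjusted p = 0.00633). Among hypoxia genes Higd1a (0.56, adjusted p = 0.00367) and Fam162a (0.55, adjusted p = 0.00234) rose. Of 36 lysosome and autophagy genes 7 rose (4 without WT replicate 1, 11 without alone replicate 3) and 12 fell, with the protease gene Ctsl up (0.46, adjusted p = 0.00119) and the glycosidase genes Naglu (-0.72, adjusted p = 0.000849) and Gaa (-0.68, adjusted p = 0.000418) down. Of 21 genes of MHC class I presentation 5 rose and 6 fell, with 3 rises without alone replicate 1. Psmb10, an immunoproteasome subunit, rose from 10.3, 10.8 and 11.7 CPM to 21.4, 17.4 and 19.5 CPM (log2 fold change 0.83 ± 0.09, adjusted p = 0.000774) and Tapbpl rose (0.72, adjusted p = 0.00457), whereas the class I heavy chain genes H2-K1 (-0.51, adjusted p = 0.00227) and H2-D1 (-0.44, adjusted p = 0.00288) fell. H2-Q4 rose (0.53, adjusted p = 0.0253), but not in 4 of 6 leave-one-out fits (adjusted p = 0.052 to 0.094).

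Genes of the epithelial to mesenchymal transition moved both ways. Of 17 transcription factors and mesenchymal genes 6 rose and 5 fell (20.2% and 20.5% of all genes), the latter becoming 2 without WT replicate 3 and 3 without WT replicate 1 or alone replicate 1 or 2. Cdh11, a mesenchymal cadherin, went from 0.440, 0 and 0.407 CPM to 3.39, 3.48 and 4.31 CPM (log2 fold change 3.73 ± 0.64, adjusted p = 0.00359), and Nt5e (0.70, adjusted p = 0.007) and S100a4 (0.51, adjusted p = 0.00556) rose, the latter with a log2 fold change of 0.14 under the offset. Zeb1 (-0.31, adjusted p = 0.0311) and Snai2 (-0.35, adjusted p = 0.00446) fell, and Vim (-0.08, adjusted p = 0.29) and Twist1 (-0.16, adjusted p = 0.13) did not pass. Only 8 of 29 epithelial genes had enough counts to be tested, of which Krt18 rose from 3, 0 and 0 to 35, 22 and 30 counts, a ratio of 30.4 (95% counting interval 10.1 to 150.4), and Tjp1 fell (-0.45, adjusted p = 0.0392), the latter not in 4 of 6 leave-one-out fits (adjusted p = 0.109 to 0.134). With the offset 2 of these 8 rose and 1 fell, and 2 rose without WT replicate 1 or any 1 of the alone libraries. Of 19 myofibroblast and actin genes 5 rose and 2 fell, where 20.2% and 20.5% of all genes did. With the offset 12 rose and 1 fell, and without WT replicate 1 or 3 or alone replicate 1 or 2 there were 3 rises and 1 fall. Tpm4 (0.36, adjusted p = 0.00212) and Zyx (0.27, adjusted p = 0.00609) rose, Myh10 fell (-0.39, adjusted p = 0.0078), Myl9 had no count alone and 16, 20 and 22 counts after coculture (at least 6.79-fold higher), and Acta2, smooth muscle actin, did not pass (0.31, adjusted p = 0.0663). Prrx1 was expressed by LLC1 itself, at 213, 226 and 183 CPM alone and 221, 231 and 216 CPM after coculture, with overlapping groups (log2 fold change 0.10 ± 0.08, adjusted p = 0.372), and passed with the offset (0.18, adjusted p = 0.00276). Of a panel measured by qPCR elsewhere in the same work, 6 of 10 could be tested here, of which Tgfb2 rose (0.83, adjusted p = 0.00536), Tgfb1 fell (-0.31, adjusted p = 0.00664), and Adamts2 had no count alone and 28, 20 and 20 after coculture (at least 7.88-fold higher). Fn1 did not pass (-0.39, adjusted p = 0.0579) and was called in DESeq2 (adjusted p = 0.0142) and without WT replicate 2 (0.0181) or alone replicate 3 (0.0209), and Wnt5a (0.55, adjusted p = 0.0625) passed with the offset (0.70, adjusted p = 0.0257). Postn, Igf1, Aldh1a3 and Cdh1 had at most 14 counts in any of the 6 libraries and were not tested. The study used the panel to check its RNA-seq results for cancer cells and does not say how it was chosen. The panel is not independent evidence of a direction.

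**Figure D4:**
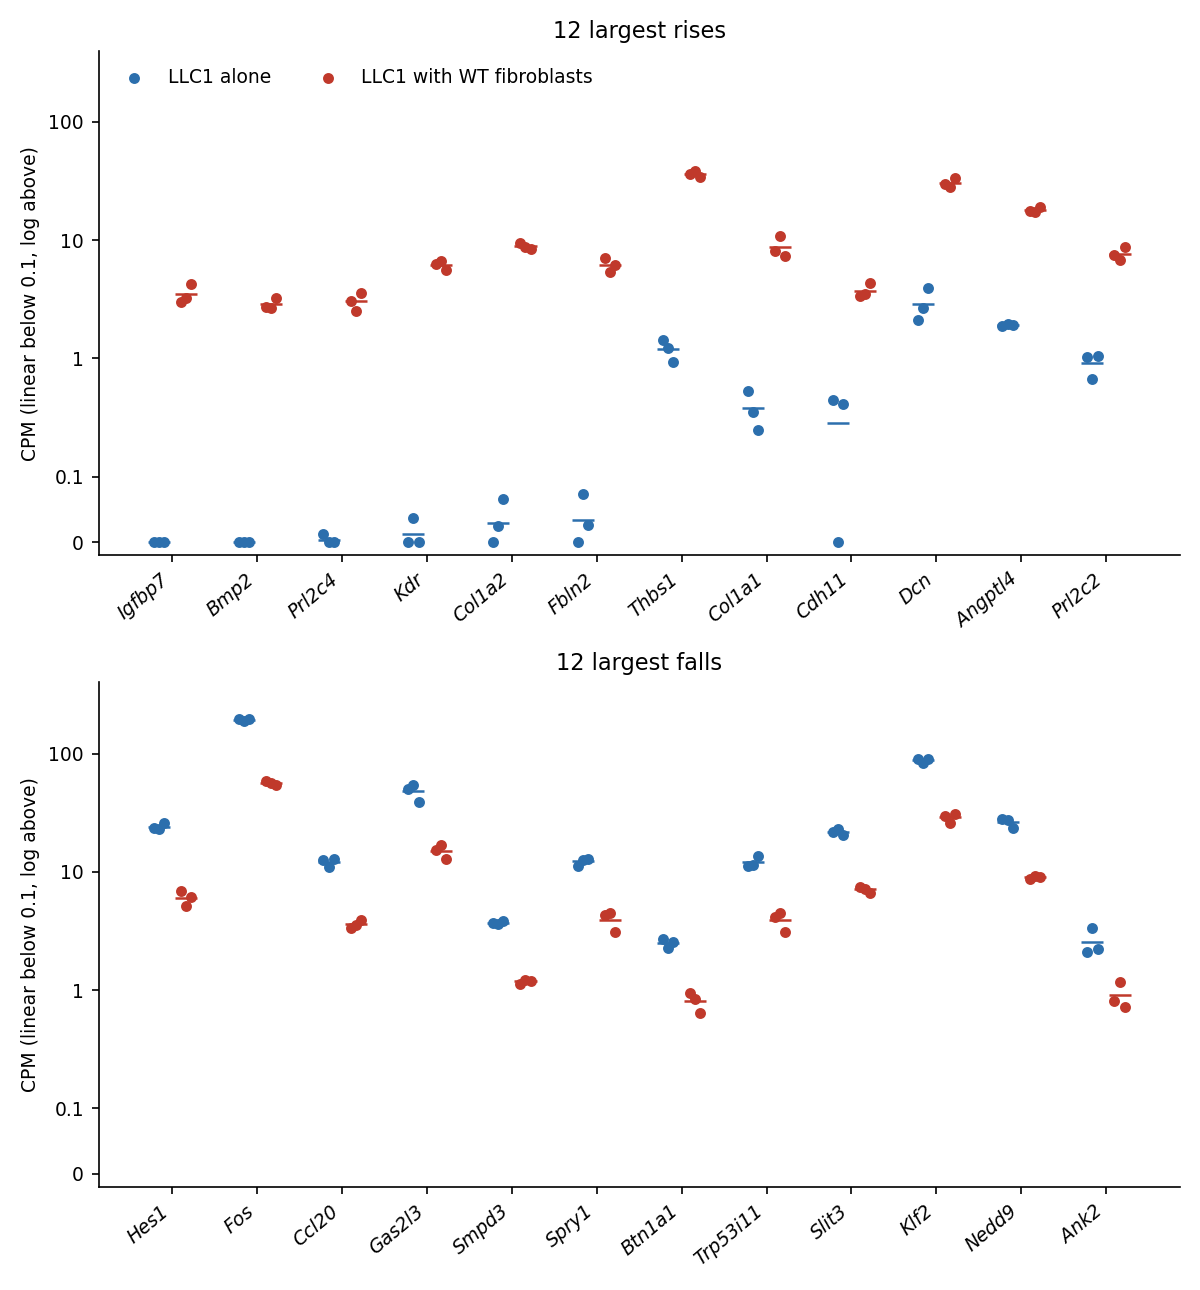
CPM in each library for the 12 largest rises and 12 largest falls among changed genes with a mean of at least 100 counts, on an axis that is linear below 0.1 and logarithmic above. Blue points are the 3 LLC1 alone libraries, red points the 3 LLC1 WT libraries and short lines the group means. Most rises start near 0 and end below 10 CPM, whereas the falls start at means of 2.51 to 194 CPM.

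The plot of single libraries shows the levels at which the largest rises and falls lay. Apart from Thbs1, Dcn and Angptl4, none of the 12 largest rises exceeded 11 CPM in any library. The proliferin genes Prl2c4 and Prl2c2, placental hormones of a family of near-identical copies whose reads cannot be assigned with certainty, rose from 1, 0 and 0 to 244, 184 and 264 counts, a ratio of 726 (95% counting interval 129.9 to 28716), and from 1.03, 0.673 and 1.05 CPM to 7.56, 6.83 and 8.68 CPM (log2 fold change 3.07 ± 0.19, adjusted p = 8.7e-05). Prl2c3, the other member of the 3 tested, did not pass (0.13, adjusted p = 0.91), and Prl2c4 had no transcript length and was not in the fit with the offset. Among the falls not described above, Slit3, a guidance ligand, went from 21.8, 22.8 and 20.7 CPM to 7.47, 7.17 and 6.68 CPM (log2 fold change -1.62 ± 0.08, adjusted p = 3.65e-05), and Nedd9, a focal adhesion scaffold, went from 27.9, 27.5 and 23.4 CPM to 8.72, 9.23 and 9.09 CPM (log2 fold change -1.54 ± 0.09, adjusted p = 6.7e-05). Gas2l3, a linker of actin and microtubules, went from 50.2, 54.4 and 39.1 CPM to 15.4, 17.0 and 12.8 CPM (log2 fold change -1.67 ± 0.15, adjusted p = 0.000337), and was at 50.7, 51.6 and 14.1 CPM in the sgPrrx1 cocultures. Smpd3, a sphingomyelinase, fell (-1.65, adjusted p = 0.000193), as did Btn1a1 (-1.64, adjusted p = 0.000764), Trp53i11 (-1.62, adjusted p = 0.000375) and the ankyrin gene Ank2 (-1.50, adjusted p = 0.00367). The groups did not overlap in any of these genes, which their choice required.

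A class of 89 genes had no count in any LLC1 alone library and at least 10 counts in every LLC1 WT library, and no gene did the reverse. Their counts added up to 4055, 3938 and 4160, which is 0.00510%, 0.00536% and 0.00557% of the library totals, and the highest mean among them was 3.50 CPM. Besides Igfbp7 and Bmp2, the class held Cdkn2a, the locus of the p16 and p19ARF cell cycle inhibitors, at 139, 146 and 163 counts, and App, the amyloid precursor gene, at 105, 77 and 99 counts. In the sgPrrx1 cocultures Cdkn2a had 23, 8 and 12 counts and App 3, 0 and 0. App is used by most cell types, and a listed 0 in all 3 libraries at this depth is unusual for such a gene. Whether the counting step gave zeros of this kind was not tested. In 168FARN, the breast cancer line of the series, 43 of the 89 had no count when it was grown alone, and 26 of these 43 had at least 10 counts in every 168FARN WT library. Another 26 had at least 10 counts in every 168FARN alone library, App with 9898, 13393 and 9734 among them.

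Markers of fibroblasts did not move as 1 group. Over all genes tested 20.2% rose and 20.5% fell. Of 20 listed markers 7 had at most 12 counts in every library, among them Thy1, Postn, Fap, Mfap5, Pi16 and Clec3b, and Dpp4 had none. Of 13 tested 7 rose (Col1a2, Fbln2, Col1a1, Mmp2, Dcn, Ly6a and Dpt) and 5 fell, namely Pdgfrb from 5.59, 5.51 and 5.83 CPM to 2.86, 2.09 and 2.33 CPM (log2 fold change -1.22 ± 0.13, adjusted p = 0.000684), Lum (-0.72, adjusted p = 0.0248), Lrp1 (-0.59, adjusted p = 0.00671), Col3a1 and Fbln1 (-0.42, adjusted p = 0.00248). With the offset 6 rose and 4 fell, and Ly6a (0.07, adjusted p = 0.348) and Lrp1 (-0.12, adjusted p = 0.18) did not pass. The summed level of the 13 was 2190 to 2260 CPM in LLC1 alone and 1610 to 1696 CPM in LLC1 WT, which was mostly Col3a1 at 1637, 1551 and 1594 CPM and then 1107, 1107 and 1078 CPM and Lrp1 at 344, 358 and 289 CPM and then 215, 252 and 191 CPM. The other 11 tested markers summed to 278, 281 and 307 CPM alone and 355, 337 and 340.2 CPM after coculture. What part RNA of fibroblasts has in the rises from near 0 was not tested.

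Markers of other cells were mostly low. Of 14 macrophage and myeloid markers 8 had no count in any library, Ptprc, Adgre1 and the C1q genes among them, and the summed level was 27.0 to 30.1 CPM alone and 51.2 to 54.2 CPM after coculture. Most of that was Cd68, a lysosomal protein, at 15.9, 15.7 and 17.4 CPM and then 36.8, 36.8 and 38.2 CPM (log2 fold change 1.19 ± 0.07, adjusted p = 6.7e-05). Cd14 rose (0.36, adjusted p = 0.0114), and Mrc1 (1.43, adjusted p = 0.0272) and Lyz2 (0.81, adjusted p = 0.0457) stayed under 1 CPM, with calls that were lost in 5 of 6 leave-one-out fits (adjusted p = 0.054 to 0.11) and in 6 of 6 leave-one-out fits (adjusted p = 0.0551 to 0.149), and Lyz2 did not pass with the offset (0.61, adjusted p = 0.0816). Of 14 endothelial markers 8 had at most 12 counts, Pecam1, Emcn and Cldn5 among them, the sum was 45.9 to 50.0 CPM and then 52.8 to 60.8 CPM, and Vwf fell from 0.151, 0.478 and 0.328 CPM to 0.0506, 0.0542 and 0.0546 CPM (log2 fold change -2.55 ± 0.56, adjusted p = 0.00948) while Kdr rose, and with the offset 2 of 5 tested rose and 1 fell. Keratinocyte markers summed to 2.35 to 2.88 CPM and then 3.14 to 3.63 CPM with Krt5 and Krt14 at 0, Col17a1 rose (1.51, adjusted p = 0.00994) and the rise of Krt10 (0.56, adjusted p = 0.0363) was lost in 5 of 6 leave-one-out fits (adjusted p = 0.0704 to 0.121). Lymphocyte markers stayed below 0.24 CPM in all 6 libraries. Smooth muscle and pericyte markers summed to 29.5 to 34.9 CPM alone and 24.6 to 28.1 CPM after coculture, and Mcam fell (-0.38, adjusted p = 0.0192), but not without WT replicate 3 or alone replicate 1 (adjusted p = 0.066 and 0.0544). Of the 4 tested 2 fell, 1 without WT replicate 3 or alone replicate 1, and with the offset 1 fell and 1 rose. Schwann cell and melanocyte markers summed to 32.0 to 39.2 CPM and then 23.1 to 25.1 CPM, with Mbp (-0.82, adjusted p = 0.0022) and Mitf (-0.50, adjusted p = 0.00154) lower. Adipocyte markers, nearly all Lpl at 101, 105 and 104 CPM and then 99.3, 98.9 and 106 CPM, summed to 101.5 to 105.4 CPM and then 101.0 to 108.6 CPM, Fabp4 rose (1.49, adjusted p = 0.00236), and the lung epithelium list, led by Abca3 (-0.67, adjusted p = 0.0025), summed to 48.3 to 54.7 CPM and then 36.0 to 41.0 CPM.

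The same step in the breast cancer line 168FARN, cocultured with WT cancer-associated fibroblasts (CAFs) of MMTV-PyMT mammary tumours, went another way for many of these groups. The test was the interaction of line and coculture in 1 edgeR fit of 12 libraries, in which the control libraries of the lines are separate but the source of the fibroblasts differs with the line, so that line and fibroblast source cannot be told apart. Of 14163 genes tested the change differed between the lines in 7248 (51.2%), being more positive in LLC1 in 3449 (24.4%) and more negative in 3799 (26.8%). In that fit 24.6% of genes rose and 20.6% fell in LLC1, and 27.7% rose and 21.7% fell in 168FARN. Of 3840 genes that changed in both lines 1425 (37.1%) moved in the same direction.

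For immediate early genes the change was more negative in LLC1 in 24 of 27 and more positive in none, with 25 of 27 rising and 1 falling in 168FARN. Fos had a log2 fold change of -1.77 in LLC1 and 0.26 in 168FARN (difference -2.03 ± 0.06, adjusted p = 1.91e-10), and Jun -0.89 and 0.62 (difference -1.51 ± 0.05, adjusted p = 1.7e-09). In 168FARN Fos was at 80.6 ± 2.38 and 96.6 ± 1.35 CPM (SD, n = 3) alone and after coculture. MAPK feedback regulators differed in 15 of 17, all more negative in LLC1, although Dusp1 had -0.10 in 168FARN against -1.42 in LLC1. Hes1, of the Notch list that was more negative in LLC1 in 13 of 28 and more positive in 2, had -1.97 and 0.20 (difference -2.18 ± 0.16, adjusted p = 4.32e-07). Interferon-stimulated genes were more negative in LLC1 in 38 of 47 and more positive in 2, and 40 rose in 168FARN. Oas3 had -0.84 in LLC1 and 0.61 in 168FARN (difference -1.46 ± 0.08, adjusted p = 6.55e-08). YAP and TEAD targets were more negative in LLC1 in 25 of 28, and 21 rose in 168FARN. With the offset 22 immediate early genes, 14 MAPK feedback regulators, 8 Notch genes, 41 interferon-stimulated genes and 22 YAP and TEAD targets were more negative in LLC1, where 26.8% of all genes were.

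The respiratory chain showed the opposite pattern, with 51 of 56 genes more positive in LLC1 and none more negative, while 38 fell in 168FARN. With the offset these counts became 38 and 6. Cycs had 0.94 in LLC1 and 0.09 in 168FARN (difference 0.85 ± 0.11, adjusted p = 3.25e-05). Ribosomal protein genes were more positive in LLC1 in 23 of 51 and more negative in 4, which the offset turned to 6 and 22. Cholesterol and fatty acid synthesis genes fell in both lines, 28 of 33 in LLC1 and 18 in 168FARN, and the change was more negative in LLC1 in 15 and more positive in 3. Among the matrix genes Thbs1 had 4.95 and 0.47 (difference 4.48 ± 0.13, adjusted p = 3.03e-10), with 168FARN at 53.9 ± 1.33 and 74.5 ± 1.61 CPM (SD, n = 3) alone and after coculture. Dcn rose in both lines, with 3.43 and 8.45, as did Angptl4 with 3.25 and 1.37. Ccl20 fell in both, with -1.73 and -2.85. These values of a gene are log2 fold changes in LLC1 and then in 168FARN.

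**Figure D5:**
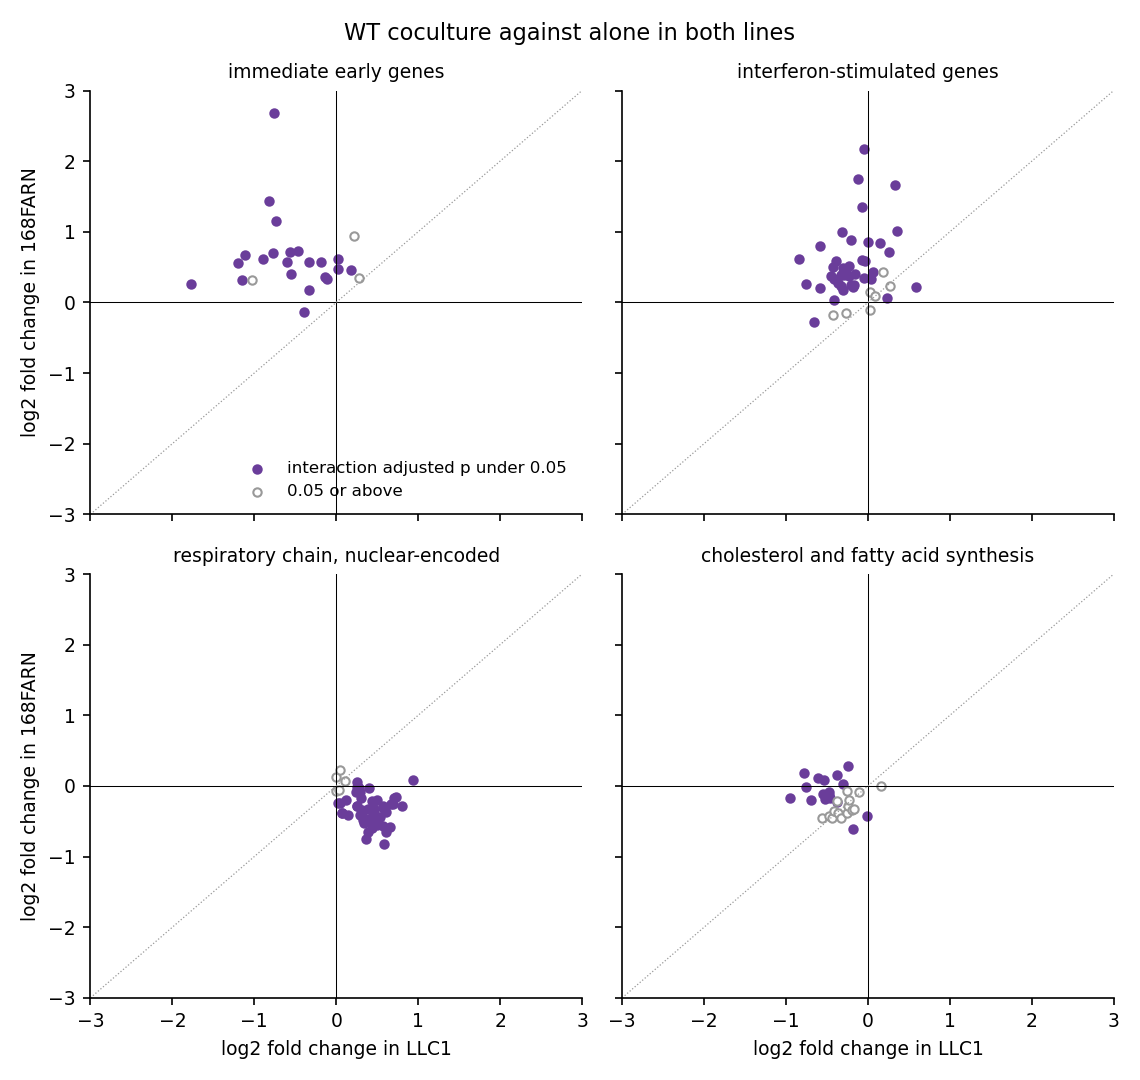
Log2 fold change of WT coculture minus alone in LLC1 (horizontal axis) and in 168FARN (vertical axis) for the members of 4 gene lists, with the diagonal of equal change dotted. Filled points passed the interaction test and open points did not. Immediate early and interferon-stimulated genes lie mostly at the upper left, respiratory chain genes at the lower right and sterol genes at the lower left, and members beyond the axes, Klf2 and Atf3 among them, are not drawn.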

How the data were processed

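The authors trimmed paired-end reads of polyadenylated RNA with Trimmomatic, aligned them to mm10 with STAR and counted reads per gene with HTSeq. The deposited values are whole-number counts per gene symbol and were used as raw counts. The methods name a batch correction by ComBat-seq after a step on human libraries, and whether it reached these libraries is not clear. Whether strand was used in counting is not given in the sources used here. The count table has 24532 rows, of which 27 hold date-like symbols, and 0 columns of other samples. Positions and promoters came from RefSeq (GRCm38.p6, 24385 symbols matched), and transcript lengths and GC content from GENCODE M1 transcripts.

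The counts of the 6 libraries were tested with edgeR 4.0.16 (limma 3.58.1, R 4.3.3): filterByExpr, TMM factors, the quasi-likelihood test with Benjamini-Hochberg adjustment over 12691 genes and a threshold of 0.05. The sources used here state no test across genes for these counts. The interaction with 168FARN used the same test on 12 libraries. CPM (counts per 1000000) use library totals multiplied by the TMM factors, and sgPrrx1 values the scaling of all 9 LLC1 libraries. The test was tried on simulated data for LLC1 WT against LLC1 alone over 12691 genes, and recovered 73.1%, 84.8% and 98.5% of genes changed 1.5-, 2- and 4-fold with 12 false calls. For the interaction over 14163 genes it recovered 51.5%, 64.6% and 85.5% with 8. In the first simulation 67, 66 and 65 genes were changed, a far smaller share than the 40.7% called in the data. Neither simulation held a trend with length or GC content, so these rates may not carry over.

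Members, lists and comparisons were chosen with earlier results of these data known. Named genes are the 12 largest rises and falls that passed, given 100 or more counts on average, no overlap between groups and an ordinary symbol, up to 4 members a list by size of change past the threshold, Prrx1 and the genes measured by qPCR, and the 5 largest interaction terms in each direction. Some genes that this rule names are not reported here. A gene with no count in a group is given a bound against a floor of 3 counts per library, and one with 1 to 3 counts a ratio with a 95% counting interval. Both cover counting error only, since PCR reads are not independent molecules. Alternatives were other scaling factors, DESeq2 1.42.0, limma voom, other filters, a fold threshold, added libraries, a replicate block and leaving out each library. The offset for length and GC content, chosen after seeing the data, was fitted in each library with natural splines (5 degrees of freedom for each) to the deviation of log2 CPM from the gene mean. Replicate numbers recur between groups, but same-numbered libraries did not deviate together in every pair.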

Additional observations from a re-analysis of the deposited data

Results flagged for a closer look

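The change on coculture differed between LLC1 and 168FARN, by the test of the difference itself, in 7248 of 14163 genes (51.2%). With the offset for length and GC content it differed in 7024 of 13215. The source of the fibroblasts also differed between the lines, so the lines and the fibroblasts cannot be told apart.

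The 5 genes with the largest differences in the negative direction had no count in 168FARN alone and were abundant in LLC1. Fstl1, a secreted glycoprotein, had 0, 0 and 0 counts in 168FARN alone and 4517, 4412 and 3133 after coculture (interaction adjusted p = 6.06e-12), against 145 ± 4.15 and 172 ± 8.91 CPM (SD, n = 3) in LLC1 alone and LLC1 WT. Tmsb4x, thymosin beta 4, went from 0, 0 and 0 to 2333, 2342 and 1721 counts in 168FARN (adjusted p = 6.35e-10) and from 45.9, 47.2 and 54.4 to 89.5, 78.9 and 93.9 CPM in LLC1. Fbln1 went from 0, 0 and 0 to 748, 689 and 550 counts in 168FARN (adjusted p = 1.91e-10), Slc25a4, an ADP/ATP carrier, from 0, 0 and 0 to 1199, 1139 and 720 (adjusted p = 4.47e-10) and Myh10, a nonmuscle myosin, from 0, 0 and 0 to 550, 507 and 402 (adjusted p = 2.28e-09). Tmsb4x, Slc25a4 and Myh10 are widely expressed, and whether the counting step gave their zeros was not tested. The fitted size of these differences depends on the prior count, because a group is at 0, and is not given.

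The 5 in the positive direction had no count in LLC1 alone. Pak3, a kinase, went from 0, 0 and 0 to 90, 101 and 99 counts in LLC1 and from 546, 584 and 520 to 561, 508 and 358 in 168FARN (interaction adjusted p = 7e-08). App went from 0, 0 and 0 to 105, 77 and 99 counts in LLC1 and from 9898, 13393 and 9734 to 15561, 15817 and 10810 in 168FARN (adjusted p = 2.27e-08), Armcx2 from 0, 0 and 0 to 77, 64 and 84 in LLC1 (adjusted p = 4.47e-08), Plpp3 from 0, 0 and 0 to 138, 68 and 76 (adjusted p = 7.36e-06) and Basp1 from 0, 0 and 0 to 69, 81 and 98 (adjusted p = 8.97e-07). All 5 had at least 358 counts in every 168FARN library. No test for a single outlying sample was run, since each group has 3 libraries.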

How the results depend on the processing

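The count of 5167 changed genes was 490 with a fold threshold of 1 on the log2 scale and 1137 with all 9 LLC1 libraries in the fit. The 2560 rises became 331 and 547, and the 2607 falls 159 and 590. The first differs by construction, through the fold asked for. The second went with sgPrrx1 replicate 3, since the fit of the other 8 LLC1 libraries gave 5779. Leaving out 1 library gave 3574 to 6195 changed genes, 1663 to 3150 rises and 1834 to 3045 falls, with the lowest total without alone replicate 1 and the highest without alone replicate 3. Other scaling factors, filters, limma voom and DESeq2 gave 4943 to 5576. Replicate numbers recur in the groups, and the deviations of same-numbered libraries correlated at -0.048, 0.080 and 0.14. So few values cannot settle whether the numbers pair the samples, and the main fit took them as unpaired. With a replicate block 6109 genes changed, 3014 higher and 3095 lower, and not every library correlated best with its own number. For the interaction, 7248 genes became 4218 with all 18 libraries, 7730 with a block within each line and 6671 to 7793 when 1 library was left out. Of 165 named genes 17 lost their call in at least 1 leave-one-out fit and none changed sign, and 60 lost it with all 9 libraries. With the offset 5 lost it and 2 gained it. Depth limits what can be said of genes at under 1 CPM in LLC1 alone, where a few counts set the fold, and not of the abundant genes.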

Other observations

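Single libraries stood far apart in a few genes, a pattern that was noticed in the data. In 11 of 10518 genes with a mean of at least 200 counts, 1 library differed more than 4-fold from the median of the 6 while the other 5 were within 2-fold of it, and none of the 11 passed edgeR's test between the groups. Lars2, a mitochondrial leucyl-tRNA synthetase, was at 18.7, 642 and 15.9 CPM in LLC1 alone and 15.2, 15.5 and 15.7 CPM in LLC1 WT (log2 fold change -3.86 ± 1.37, adjusted p = 0.0558), and at 15.8, 606 and 12.7 CPM in the sgPrrx1 cocultures. Cebpb, a transcription factor of the C/EBP family, was at 3.80, 142 and 153 CPM and then 96.5, 106 and 135 CPM. Emp1, a membrane protein, was at 618, 608 and 616 CPM and then 616, 611 and 99.4 CPM. Dag1, dystroglycan, was at 239.9, 35.2 and 216 CPM and then 144, 162 and 133 CPM, and Mdm4, a regulator of p53, at 25.7, 31.7 and 15.3 CPM and then 141, 33.2 and 29.4 CPM. Jund, described above, belongs to the same set. The libraries concerned differ from gene to gene, and why they stand apart was not tested.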
